A study of Mus musculus with 4 samples.

Results

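The genes of AMP-activated protein kinase (AMPK), of its upstream kinase LKB1 and of FoxO transcription factors were examined in ATAC-seq peak lists of mouse aortic nuclei. ATAC-seq cuts accessible DNA with the transposase Tn5, so that open regions appear as peaks of fragments. The 10 members were given by name, with earlier results of these data known. They are *Prkaa1*, *Prkaa2*, *Prkab1*, *Prkab2*, *Prkag1*, *Prkag2* and *Prkag3*, which encode the AMPK subunits, *Stk11*, which encodes LKB1, and *Foxo1* and *Foxo3*. A peak was counted at a member when it lay in the gene body or within 20 kb of it, in GENCODE vM21 on GRCm38 (mm10). This gave 98 of the 64360 peaks listed in all. Control (*Col3a1*+/+) and VEDS (*Col3a1*G938D/+) mice were untreated and 60 days old. VEDS is vascular Ehlers-Danlos syndrome, and the VEDS mice carry 1 substituted allele of the collagen III gene in the germline, so that every cell type carries it. Each genotype had 1 library from females and 1 from males, and each library pooled the aortic tissue of 2 mice. Cell types were not separated in these lists.

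The lists stood apart in length and depth. The authors' lists held 21176 peaks for the control female library, 1236 for the control male, 504 for the VEDS female and 41444 for the VEDS male. The median peak had 14, 7, 6 and 22 fragments at its summit, recovered from the listed fold enrichment and p-value. Genotype, sex and list length cannot be told apart with 1 library per sex and genotype. An exact permutation test of 2 libraries against 2 cannot give a two-sided p below 0.333, and no genotype test was made. A region without a peak may have been closed, or open but undetected in that library, and it was not taken as closed. Both long lists had promoter peaks at all 6 VSMC markers (vascular smooth muscle cells), at 0 of 3 immune and 0 of 3 adipocyte markers, and at 2 of 4 fibroblast markers. The counts of endothelial markers differed, with 0 of 5 in the control female list and 3 of 5 in the VEDS male list. These 3 promoter peaks had 11, 13 and 33 fragments, beside the median of 22 over that list. Neither short list had a promoter peak at any marker of these cell types. The part of cell composition in the results below was not tested.

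AMPK senses a fall in cellular energy. It is built from a catalytic α subunit (*Prkaa1*, *Prkaa2*), a scaffolding β subunit (*Prkab1*, *Prkab2*) and a γ subunit that binds AMP and ATP (*Prkag1*, *Prkag2*, *Prkag3*), and LKB1 phosphorylates the activation loop of α. Active AMPK turns off lipid and protein synthesis and turns on autophagy and fuel uptake. In blood vessels it is known for restraining VSMC growth and for promoting relaxation. FoxO proteins are transcription factors of stress resistance, cell cycle arrest and starvation, which AKT keeps out of the nucleus and AMPK phosphorylates at other sites.

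Promoter sequences of the members with the weakest and the strongest promoter peaks are shown first. Each line gives 100 bases before an annotated start, 5′ to 3′ on the strand of the gene in GRCm38, with GC boxes (GGGCGG, both strands) and CCAAT boxes (CCAAT, both strands) in capitals. The starts of *Prkaa1* and *Prkaa2* are RefSeq's, and those of *Prkab2* and *Stk11* are the outermost GENCODE starts. The α genes *Prkaa1* and *Prkaa2* had the weakest, and *Prkab2* and *Stk11* had the strongest in the deepest list. The lines lie at chr15:5143761-5143860 (plus strand), chr4:105109899-105109998 (minus), chr3:97658093-97658192 (plus) and chr10:80115703-80115802 (plus). Their GC content was 89.0% for *Prkaa1*, 81.0% for *Prkaa2*, 72.0% for *Prkab2* and 72.0% for *Stk11*.
Prkaa1: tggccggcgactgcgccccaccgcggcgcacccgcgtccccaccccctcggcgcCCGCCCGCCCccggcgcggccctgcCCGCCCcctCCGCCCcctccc
Prkaa2: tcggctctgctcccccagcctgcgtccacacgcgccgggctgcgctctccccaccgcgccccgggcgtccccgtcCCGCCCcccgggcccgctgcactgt
Prkab2: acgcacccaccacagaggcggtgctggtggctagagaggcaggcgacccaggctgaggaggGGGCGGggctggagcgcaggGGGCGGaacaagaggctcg
Stk11: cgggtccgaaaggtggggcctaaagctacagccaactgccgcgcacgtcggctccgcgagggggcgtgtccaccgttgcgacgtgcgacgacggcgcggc

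*Prkag2* has 3 RefSeq starts, which differed in their peaks. The lines below give 100 bases before the outermost start (chr5:25100643-25100742), a middle start (chr5:24995754-24995853) and an inner start (chr5:24908510-24908609), all on the minus strand, with GC boxes and CCAAT boxes in capitals. Their GC content was 67.0%, 45.0% and 79.0%.
Prkag2 outermost start: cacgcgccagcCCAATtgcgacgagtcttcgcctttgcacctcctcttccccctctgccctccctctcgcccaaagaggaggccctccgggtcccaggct
Prkag2 middle start: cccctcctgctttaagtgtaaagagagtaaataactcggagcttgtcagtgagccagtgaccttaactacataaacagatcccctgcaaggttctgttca
Prkag2 inner start: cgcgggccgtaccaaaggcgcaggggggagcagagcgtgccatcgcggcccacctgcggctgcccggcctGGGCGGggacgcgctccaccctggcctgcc

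The next lines give the 5 places where the AP-1 consensus (TGAGTCA or TGACTCA, the same site on opposite strands) lay in summit windows of both long lists, with 27 bases on either side and the match in capitals. They lie in the intron of *Prkab2* (chr3:97659930-97659990, plus strand), in introns of *Prkag2* (chr5:25007065-25007125 and chr5:25030504-25030564, minus), before the start of *Prkag3* (chr1:74749485-74749545, minus) and in an intron of *Foxo3* (chr10:42231263-42231323, minus).
Prkab2 intron: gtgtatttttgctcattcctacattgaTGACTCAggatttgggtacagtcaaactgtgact
Prkag2 intron, first site: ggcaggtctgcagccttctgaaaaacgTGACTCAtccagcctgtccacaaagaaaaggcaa
Prkag2 intron, second site: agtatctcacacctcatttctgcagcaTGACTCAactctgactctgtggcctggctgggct
Prkag3 upstream: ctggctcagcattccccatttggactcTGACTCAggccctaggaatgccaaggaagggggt
Foxo3 intron: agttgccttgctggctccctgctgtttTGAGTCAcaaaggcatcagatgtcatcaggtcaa

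Other matches lay in peaks described below. An intron of *Prkaa2* held 2 MEF2 matches (chr4:105100689-105100782, minus strand), the strongest intron peak of *Foxo3* held the FoxO consensus GTAAACA on the other strand (chr10:42251437-42251497, minus), and the transcribed start of *Prkab2* held an SRF match (chr3:97658231-97658260, plus), the core of the CArG box of contractile genes.
Prkaa2 intron, MEF2: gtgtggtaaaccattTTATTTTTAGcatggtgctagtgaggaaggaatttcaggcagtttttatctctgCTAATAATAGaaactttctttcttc
Foxo3 intron, FoxO: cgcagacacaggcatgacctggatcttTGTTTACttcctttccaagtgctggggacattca
Prkab2 start, SRF: ggccttgtagCCATTTTAGGaggaaacccg

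Across the 10 loci, the control female list had 31 peaks, the control male 0, the VEDS female 1 and the VEDS male 66. Where the nearest start of any gene had to be the member's, 24 control female and 47 VEDS male peaks were left. The single VEDS female peak had 6 fragments and lay at the promoter of *Rheb*, the small GTPase that activates mTORC1, which neighbours *Prkag2*. The members' loci span 1006204 bp in all, so that the long lists had 3.08 and 6.56 peaks per 100 kb over the loci pooled. The median of the 10 single loci was 2.2 in the control female list and 5.9 in the VEDS male list. Over 21938 protein-coding loci the median was 1.53 with an upper quartile of 3.35 in the former, and 2.42 with an upper quartile of 5.43 in the latter. *Stk11* was the densest member in both lists, at 10.9 and 14.6 peaks per 100 kb.

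A promoter peak is a peak within 1 kb of any annotated start of the gene. In the control female list, 8 of the 10 members had one, beside 44.9% of all coding genes. In the VEDS male list, 10 of 10 had one, beside 55.5% of all coding genes. In the control male and VEDS female lists, 0 of 10 had one, beside 1.34% and 1.37% of all coding genes. Among coding genes with a promoter peak, the quartiles of the highest −log10 q were 8.33 and 21.5 in the control female list (median 13.6) and 16.5 and 48.5 in the VEDS male list (median 29.9). A −log10 q is relative to the background of its own library, so that levels were compared within a list and ranks side by side.

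**Figure D1:**
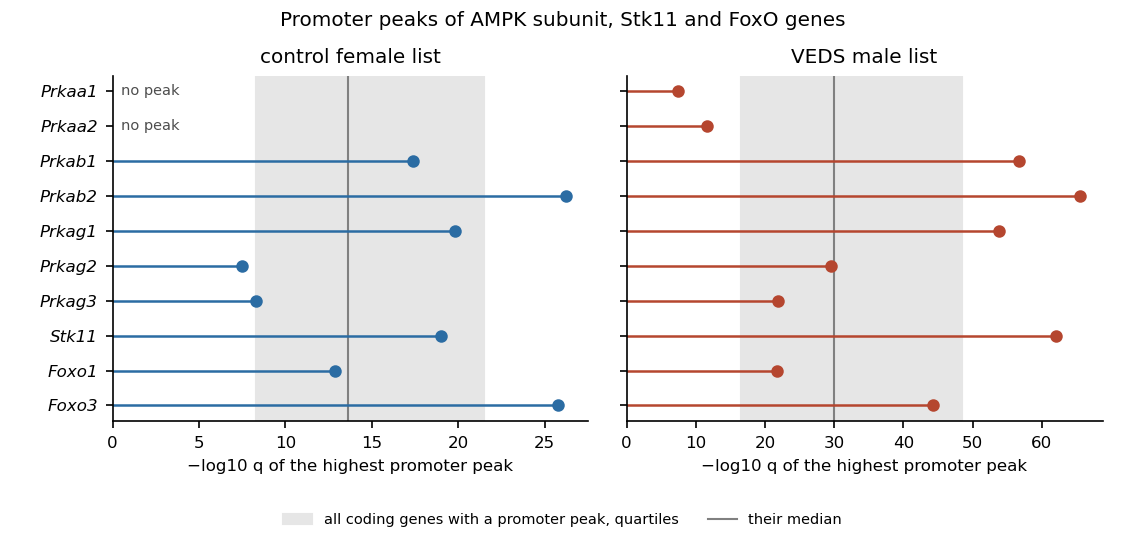
Highest −log10 q (x axis, no unit) of the promoter peak of each member (y axis) in the control female and VEDS male lists. Grey bands are the quartiles and grey lines the median over all coding genes with a promoter peak. *Prkaa1* and *Prkaa2* have no peak in the control female list and lie below the band in the VEDS male list, whereas *Prkab1*, *Prkab2*, *Prkag1*, *Stk11* and *Foxo3* lie above the median in both.

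The catalytic α genes had the weakest promoters of the members. *Prkaa1*, the α1 gene that is broadly expressed, lies at chr15:5143861-5181899 on the plus strand. It had 0 peaks in the control female, control male and VEDS female lists and 4 in the VEDS male list. Its promoter peak at chr15:5143649-5143913 had 16 fragments and a −log10 q of 7.39, and 7.93% of the coding promoters with a peak ranked below it. The 2 intron peaks had 7 fragments each and −log10 q of 1.36 and 1.69, next to the limit of the list. The fourth, with 16 fragments, lay 5 bp from the start of the neighbouring gene *Ttc33*. *Prkaa2*, the α2 gene that is best known from muscle and heart, lies at chr4:105029874-105109890 on the minus strand. It also had 0 peaks in those 3 lists and had 8 in the VEDS male list. Its promoter peak at chr4:105109737-105110144 had 21 fragments and a −log10 q of 11.7, with 15.8% of coding promoters below it. A second peak, 632 bp before the start, had 11 fragments. The strongest of its 6 intron peaks, at chr4:105100641-105100833, had 25 fragments and a −log10 q of 16.3, above its promoter, and holds the 2 MEF2 matches printed above. Both α promoters were rich in CpG, with GC contents of 81.3% and 75.0% in the 300 bases around the summit. The upper quartile over the VEDS male promoter windows was 68.7%.

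The absence of α promoters from the control female list was set beside VEDS male peaks of the same fragment number or rank. Of the 297 VEDS male peaks with 16 fragments within 1 kb of a coding start, 17.8% overlapped a control female peak, and of the 283 with 21 fragments, 36.4% did. With the VEDS male list cut into 10 equal rank groups by −log10 q, the *Prkaa1* promoter was in group 7, where 22.9% of the peaks near a coding start overlapped, and the *Prkaa2* promoter was in group 5, where 49.9% did. No difference between the libraries can be read from these genes.

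The scaffolding β genes had strong promoters in both long lists. *Prkab1* (β1, chr5:116013586-116024508, minus strand) had a single peak in each, at its promoter. It had 20 fragments and a −log10 q of 17.4 in the control female library and 62 fragments and 56.6 in the VEDS male, with 63.4% and 82.4% of coding promoters below it. None of the 15 motif families searched was present in its summit windows. *Prkab2* (β2, chr3:97658193-97673812, plus strand) had the promoter of highest −log10 q among the members in both lists. By fragments, *Foxo3* was higher in the control female list (41) and *Stk11* in the VEDS male list (103). The *Prkab2* promoter had 38 fragments and a −log10 q of 26.2 in the control female library and 91 fragments and 65.5 in the VEDS male. Of coding promoters, 84.9% and 88.3% lay below it. Both lists also had 2 upstream peaks, 16.0 kb and 9.48 kb before the start in the control female list, and a peak in the intron with the AP-1 match. The upstream peak farther away had 10 and 36 fragments, and its summits lay nearer a start of *Fmo5*, at 13291 and 13330 bp. The intron peak had 19 control female and 30 VEDS male fragments, the smallest ratio of the shared member peaks at 1.58. The VEDS male list alone had a peak at the neighbour *Gm17651*, of which 79.1% was masked as repeats.

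The γ genes differed among themselves. *Prkag1* (γ1, the broadly expressed form, chr15:98812797-98831521, minus strand) resembled the β genes, with 26 fragments and a −log10 q of 19.8 at the control female promoter and 68 fragments and 53.7 at the VEDS male promoter. The shares of coding promoters below it were 71.0% and 80.1%. It had 1 further peak, 27.2 kb from its 5′ end, with 16 fragments in the VEDS male list. *Prkag3* (γ3, known from skeletal muscle, chr1:74738922-74749221, minus strand) had a peak 300 bp before its start with 12 control female and 32 VEDS male fragments, and with 24.9% and 35.3% of coding promoters below it. This is the peak of the AP-1 site, and its window had few CpG, at a ratio of observed to expected of 0.216 in the control female list and 0.249 in the VEDS male list. A second peak, at chr1:74748716-74749012 with 17 fragments, was listed in the VEDS male library alone, and its summit lay 290 bp inside the gene and 24 bp from an inner annotated start. Of 5 skeletal muscle markers, 1 had a promoter peak in the control female list (*Actn3*) and 2 in the VEDS male list (*Actn3* and *Ckm*), whereas *Acta1*, *Myod1* and *Tnnt3* had none in either. Of 4 cardiac markers 1 (*Ryr2*) had a promoter peak in both long lists, and of 4 genes of liver and brain 0 had one in the control female list and 1 (*Syn1*) in the VEDS male list.

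*Prkag2* (γ2, chr5:24862744-25100642, minus strand) is the longest member, at 238 kb, and had the most peaks, 9 in the control female list and 20 in the VEDS male list. The starts of *Prkag2* gave different orders by −log10 q. At the inner start, chr5:24908438-24908968 had 15 fragments in the control female library (−log10 q 7.48), and the VEDS male peak there had 38 (20.9). At the middle start, the control female peak had 11 fragments (6.22) and the VEDS male peak 39 (29.5). By −log10 q, the highest *Prkag2* promoter was thus the inner one in the control female list and the middle one in the VEDS male list, where 20.7% and 49.3% of coding promoters lay below it. In the VEDS male list the inner and middle starts were near in fragments, at 38 and 39, over local backgrounds of 4.11 and 2.51. The control female order rested on 15 and 11 fragments, and a change of start between the libraries was not tested. At the outermost start, the control female list had a peak at chr5:25100395-25100681 with 9 fragments and a −log10 q of 4.11. The deeper VEDS male list had none there, and its nearest peak of the gene lay 22.3 kb downstream. With that list also cut into 10 rank groups, 87.6% of all control female peaks in the group of this peak overlapped a VEDS male peak. The strongest peak inside the gene was an intron peak 93.6 kb from the outermost start, at chr5:25006910-25007179 in the control female list, with the same summit in the VEDS male list. It had 25 fragments (−log10 q 18.3) and 81 fragments (64.1), more than any *Prkag2* start in either list, and its window holds AP-1, CTCF and CAGCTG matches.

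*Stk11*, whose product LKB1 activates AMPK and its related kinases, lies at chr10:80115803-80130682 on the plus strand in a dense region. Its promoter had 35 fragments and a −log10 q of 19.0 in the control female library and 103 fragments and 62.0 in the VEDS male, with 68.5% and 86.1% of coding promoters below it. A second peak in the gene had 20 and 59 fragments, with summits 307 bp apart in the lists. Of the 6 control female and 8 VEDS male peaks at the locus, these were the only 2 of *Stk11* itself in either list. The others lay at promoters of the neighbours *Sbno2*, *Atp5d* and *Midn*.

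The FoxO genes had promoter peaks in both long lists, of unequal strength. *Foxo1* (chr3:52268336-52353221, plus strand) had 20 fragments and a −log10 q of 12.9 in the control female library and 38 fragments and 21.8 in the VEDS male, with 46.9% and 35.2% of coding promoters below it. A pair of upstream peaks, 10.4 and 9.56 kb before the start in the control female list, was shared, with 11 and 10 fragments there and 22 and 25 in the VEDS male list. Its gene body of 84.9 kb had 0 intron peaks in the control female list and 1 in the VEDS male list, with 10 fragments. *Foxo3* (chr10:42181841-42276755, minus strand) had peaks over its start, with 24 and 51 fragments, but its highest promoter peak lay 974 bp before it with the same summit in both lists. That upstream peak had 41 fragments (−log10 q 25.8) in the control female list, whereas the VEDS male one had 78 (44.2), with 84.1% and 70.2% of coding promoters below it. *Foxo3* had 3 intron peaks in the control female list and 8 in the VEDS male list. The strongest, 25.3 kb from the 5′ end, had 25 fragments (19.0) and 68 fragments (49.4) and holds the FoxO match. In the VEDS male list this intron peak ranked above every promoter peak of its own gene.

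**Figure D2:**
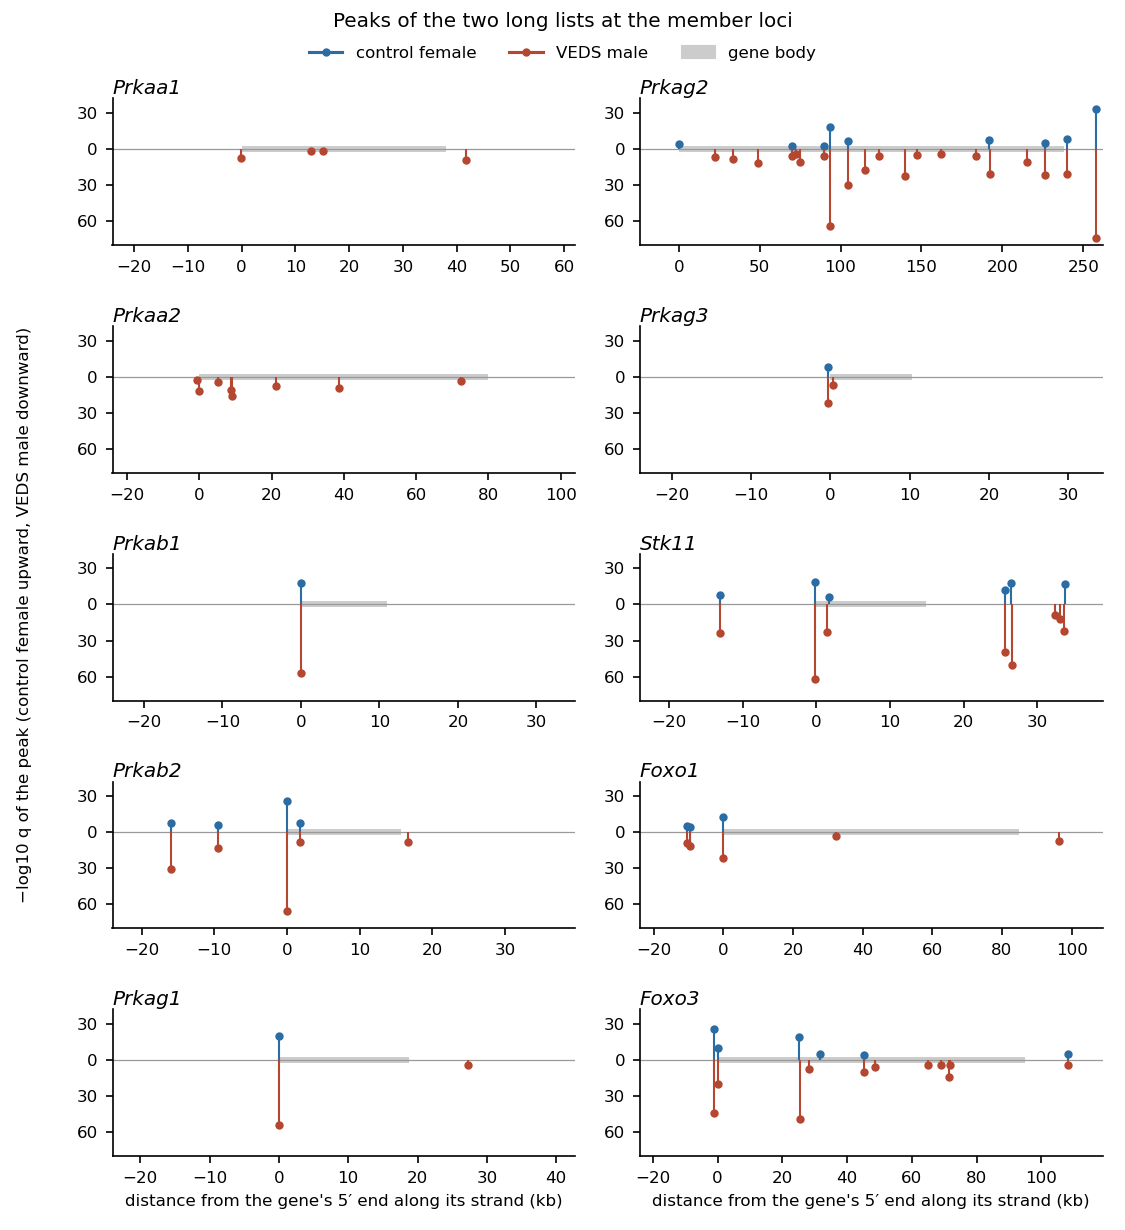
Peaks of the control female list (upward) and the VEDS male list (downward) at each member locus. The x axis is the distance of the summit from the 5′ end of the gene along its strand (kb), the y axis is −log10 q (no unit), and grey bars are gene bodies. *Prkaa1* and *Prkaa2* have downward lines alone, and *Prkag2* and *Foxo3* have most of the intron peaks.

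Introns held most of the member peaks that the VEDS male list had and the control female list had not. These were 27 of 34 intron peaks, 4 of 15 promoter peaks, 6 of 12 downstream peaks and 0 of 5 upstream peaks. The other 7 intron peaks, 20.6% of the 34, overlapped a control female peak, beside 35.8% of the 12745 VEDS male peaks in introns of coding genes (outside coding-gene exons and over 1 kb from any coding start). Summing the shares of all peaks in the rank group of each of the 34 gave 10.3 overlaps next to the 7 counted. The control female list had 8 intron peaks, of which 7 overlapped a VEDS male peak. *Prkag2* had 16 of the 34, *Foxo3* 8, *Prkaa2* 6, *Prkaa1* 2, and *Prkab2* and *Foxo1* 1 each. The genes *Prkab1*, *Prkag1*, *Prkag3* and *Stk11* had 0. The median −log10 q of the VEDS male intron peaks was 7.1, against 21.8 for the 15 promoter peaks. No member peak was classed as lying in an exon outside a promoter in either long list.

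Of the 66 VEDS male member peaks, 29 overlapped a control female peak, which is 43.9% (95% Wilson interval 32.6 to 55.9, counting error only). Of all VEDS male peaks, 47.6% did. The interval treats the 66 peaks as independent, although they cluster in 10 loci of a single library. Within 1 kb of a coding start the shares were 66.7% of 24 member peaks and 67.1% of all peaks, and farther away they were 31.0% of 42 and 37.5%. In the other direction, 29 of the 31 control female member peaks (93.5%) overlapped a VEDS male peak, beside 95.0% of all control female peaks. The other 2 were the outermost *Prkag2* start and an intron peak of *Foxo3* at chr10:42244905-42245148 with 10 fragments. The overlap followed rank. With the VEDS male list split in the same way, 21 of 22 member peaks overlapped in the highest 3 groups and 8 of 44 in the other 7. Summing the shares of all peaks in the rank group of each member peak gave 30.8 overlaps, next to the 29 counted. The member loci were thus shared between these libraries about as often as other regions of the same rank.

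**Figure D3:**
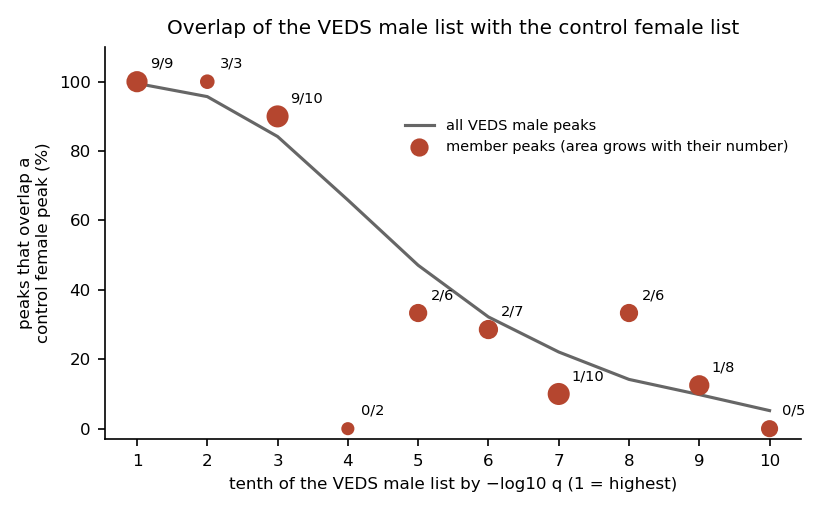
Share of VEDS male peaks that overlap a control female peak (y axis, %) by rank group of the list (x axis, 10 equal groups, 1 is the highest −log10 q). The line is all 41444 peaks, the points are the 66 member peaks, and the fractions give overlapping and total member peaks. The points fall with rank as the line does.

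At the 29 shared regions, the VEDS male library had more fragments in 29 of 29. The ratio of VEDS male to control female fragments ran from 1.58 to 3.6 with a median of 2.62, and over the 20081 shared regions of all genes its median was 2.47, with quartiles of 2.06 and 3.0. The member regions thus followed the ratio of the libraries. The largest ratios were at the farther upstream peak of the *Prkab2* locus, nearer *Fmo5* (3.6), the middle *Prkag2* start (3.55) and the antisense *Prkag2os2* promoter inside *Prkag2* (3.44). Promoters of *Foxo1* and *Foxo3* were at 1.9, 1.9 and 2.12. Summits of 20 of the 29 lay within 50 bp of each other.

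AP-1, the dimer of JUN and FOS proteins, had matches in 300-bp summit windows at 4 members in the control female list (*Prkab2*, *Prkag2*, *Prkag3* and *Foxo3*) and at 6 in the VEDS male list, with *Stk11* and *Foxo1* added. The windows with a match were 5 of 31 (16.1%) and 9 of 66 (13.6%), beside 11.6% of all windows in either list and 5.2% of 32851 RefSeq promoters of 300 bases. Over 1 kb from any coding start, 18.0% of all control female windows and 15.3% of all VEDS male windows held a match. Within 1 kb of a coding start the shares were 4.17% and 4.61%, beside 1 of 12 and 1 of 15 member promoter windows. The *Prkab2* site, at chr3:97659957-97659963, was 8 bp from the control female summit and 41 bp from the VEDS male summit. The added *Stk11* window belongs to the neighbour *Midn*, and its match lay at the edge of that window. The added *Foxo1* match lay 108 bp from a summit downstream of the gene and outside the peak itself. With 200-bp windows, both long lists had AP-1 matches at 4 members. With whole peaks, the counts were 4 in the control female list and 5 in the VEDS male list. An intron peak of *Foxo3* of 180 bp, listed in the VEDS male library alone, held 2 AP-1 matches. Neither α gene nor *Prkab1* nor *Prkag1* had one. The study names *Foxo1*, *Foxo3*, *Prkag2* and *Prkag3* among stress and starvation genes near AP-1 (FOSL1:JUND) motifs in VEDS aorta. It did not report that enrichment near the AP-1 (FOSL2:JUN) motifs of controls. Its motif sites came from a sequence model and were linked to nearest starts, unlike the consensus matches here. Its supplement describes a peak set for each genotype, the larger for controls, whereas the lists here are of single libraries. The member shares are not independent of the study's choice of genes.

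Motifs were searched on both strands, and matches of different families may overlap. MEF2, a factor of muscle genes, had matches in 1 of 31 control female windows and 4 of 66 VEDS male windows (3.23% and 6.06%, beside 5.55% and 5.79% of all windows and 3.19% of RefSeq promoters). The control female window lay at the promoter of the neighbour *Rheb*, which also held a match in the VEDS male list. Of the other VEDS male windows, those at *Gm17651* and the noncoding RNA *1500035N22Rik* lay at starts of other genes. The *Prkaa2* intron had matches 41 bp and 13 bp from its summit. The FoxO consensus was found in 1 and 3 member windows (3.23% and 4.55%, beside 3.15% and 3.34% of all windows and 3.65% of RefSeq promoters). Its match in *Foxo3* lay 21 bp from the control female summit and 35 bp from the VEDS male summit. Further matches in the VEDS male list lay in the second *Stk11* peak and in a *Prkag2* intron. The *Stk11* match also lay inside the control female peak there, but outside its window, as the summits were 307 bp apart. SRF matches lay at the *Prkab2* start in both lists, 8 and 59 bp from the summits, at the inner *Prkag2* start in the control female list, and in a *Foxo3* intron in the VEDS male list. The *Prkag2* site also lay inside the VEDS male peak there, but outside its window, as the summits were 145 bp apart. SRF matches were in 6.45% and 3.03% of member windows, beside 3.02% and 3.09% of all windows and 1.63% of RefSeq promoters. TEAD matches (ACATTCCA, ACATTCCT, GCATTCCA or GCATTCCT) lay at promoters of *Prkag2*, *Prkag3* and *Foxo3* in both lists, in 3 of 12 control female promoter windows and 3 of 15 VEDS male ones, beside 3.34% and 3.59% of all promoter windows and 4.64% of RefSeq promoters. With a further match in a *Foxo3* intron in the VEDS male list, 9.68% and 6.06% of all member windows held one, beside 7.52% and 7.8% of all windows. GC boxes were present in 6 of 12 and 9 of 15 member promoter windows, beside 70.2% and 63.8% of all promoter windows and 35.7% of RefSeq promoters. The steroid response element was found in 0 member windows of either list, and 0.696% and 0.607% of all windows and 0.222% of RefSeq promoters hold it.

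**Figure D4:**
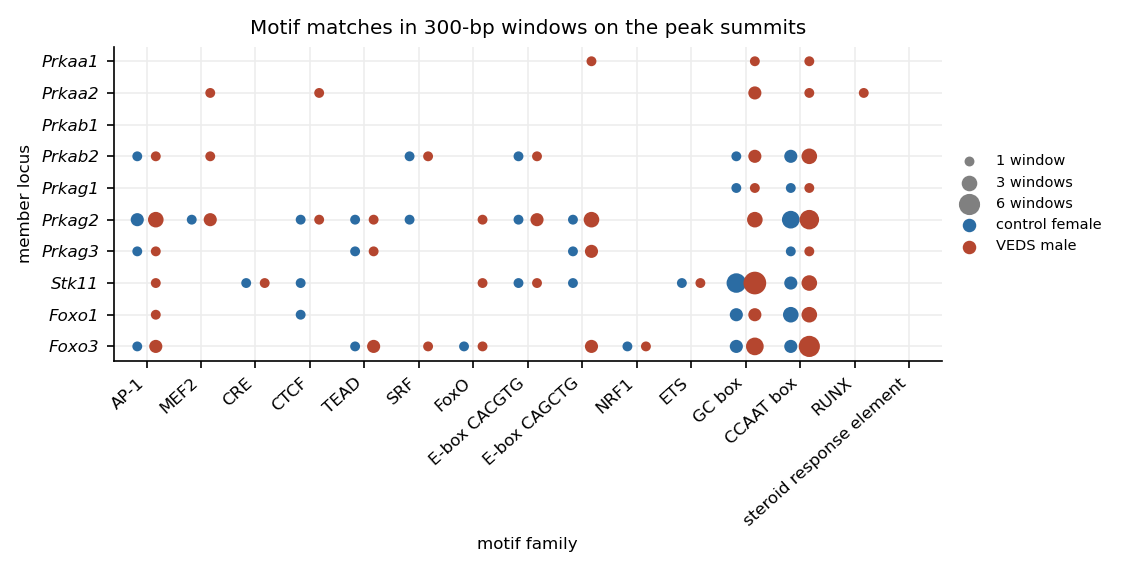
Number of 300-bp summit windows (area of the point) with at least 1 match of each motif family (x axis) at each member locus (y axis), in the control female and VEDS male lists. AP-1 is present at *Prkab2*, *Prkag2*, *Prkag3* and *Foxo3* in both, and *Prkab1* has no match of any family.

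The wider pathway had promoter peaks about as often as the members. Of 89 genes in 6 lists, 77 had a promoter peak in the control female list (86.5%) and 83 in the VEDS male list (93.3%), 2 in the control male list (*Sesn1* and *Sesn3*) and 1 in the VEDS female list (*Hmgcs1*). The coding gene shares given above, 44.9% and 55.5%, are the background for these counts. The partners and kinases upstream of AMPK numbered 6 and 7 of 7. *Strada*, the pseudokinase that holds LKB1 active, had a −log10 q of 28.8 in the control female list and 54.5 in the VEDS male list, and *Cab39l*, a gene of its MO25 partner, 22.7 and 50.3. AMPK substrates and effectors numbered 18 and 19 of 20. They were led by *Hmgcs1*, of cholesterol synthesis, at 41.4 in the control female list and 102 in the VEDS male list, and *Acacb*, a carboxylase that AMPK inhibits, reached 25.8 and 78.3. *Nos3*, the endothelial nitric oxide synthase, had no promoter peak in any list. The AMPK-related kinases numbered 9 and 12 of 12, led by *Mark2* at 25.5 and 75.7. *Brsk1*, *Mark1* and *Nuak2* had a promoter peak in the VEDS male list and not in the control female list, as both α genes did. So had *Cab39*, *Tsc2* and *Bcl6* of the other lists. Over all coding genes, 9840 had a promoter peak in the control female list and 12176 in the longer VEDS male list.

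On the FoxO side, *Foxo4* had a weak promoter peak in the control female list (−log10 q 2.87) and one of 20.01 in the VEDS male list, and *Foxo6* had 17.8 and 19.95. The kinases, phosphatases and modifiers upstream of FoxO numbered 23 of 24 in either list, with *Skp2*, *Pik3ca* and *Prmt1* the highest in the control female list at 40.2, 39.97 and 34.9. *Akt1* had no promoter peak in either, whereas *Akt2* had 10.9 and 45.3. FoxO target genes numbered 19 and 20 of 24. *Klf2* (35.4 and 70.2), *Txnip* (30.6 and 51.9) and *Ccng2* (28.7 and 68.0) were the highest in the control female list. The atrophy gene *Fbxo32* had 3.56 and 13.4, and its partner *Trim63* had no promoter peak in either, nor had the liver genes *G6pc*, *Pck1* and *Igfbp1*.

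**Figure D5:**
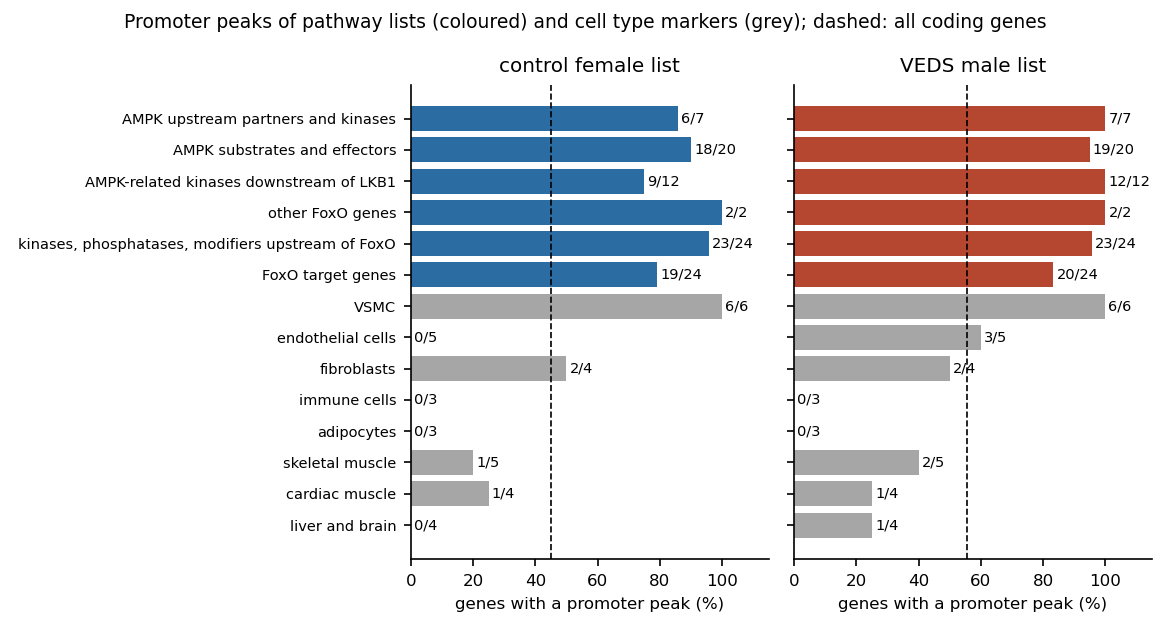
Share of genes with a promoter peak (x axis, %) in each pathway list (coloured) and cell type marker list (grey), with counts beside the bars, for the control female and VEDS male lists. The dashed line is the share of all coding genes. The 6 pathway lists lie above the line in both panels, as the VSMC markers do.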

How the data were processed

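Chromatin accessibility was measured in 4 libraries of aortic nuclei made with a single-cell ATAC kit and listed in aggregate. The authors mapped reads to mm10, used barcodes to remove duplicates, shifted Tn5 cut sites, ran MACS2 in narrow mode on each library and dropped blacklisted regions. The aligner is not given in the sources used here. Deposited values per peak are a score (10 times the −log10 q without decimals), a fold enrichment (the authors' ratio to local background within that library) and the authors' −log10 p and −log10 q. The lowest −log10 q is between 1.303 and 1.321.

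Fragments at a summit were recovered as the integer that returns the deposited fold and p-value of a Poisson model, for 99.3% to 99.9% of peaks, and the step was tested on simulated data. Library totals were not used here. Starts and genes are from GENCODE vM21. All 10 members matched RefSeq's promoter table (12 promoters, GRCm38.p6), and printed sequences were read from that genome. Fixed consensus sequences of 15 families were searched on both strands of 300-bp windows on the summits. Overlap means at least 1 bp. All members are named, and from each pathway list the genes of highest −log10 q in the control female list. Genes outside this rule (*Nos3*, *Akt1*, *Akt2*, *Fbxo32*, *Trim63*, *G6pc*, *Pck1*, *Igfbp1*, *Brsk1*, *Mark1*, *Nuak2*, *Cab39*, *Tsc2*, *Bcl6*, *Sesn1*, *Sesn3*) were named after their values were seen. The members and lists were chosen with earlier results of these data known. No test between libraries was made. Alternatives were a −log10 q of at least 5 or 10, the 504 highest peaks of every list, other flanks, promoter distances, overlap rules, windows and an AP-1 consensus with any middle base, and leaving out each library. Scripts ran under Python 3.11.15 (numpy 2.4.6, scipy 1.17.1, pandas 2.3.3, matplotlib 3.10.9).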

Additional observations from a re-analysis of the deposited data

Results flagged for a closer look

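The difference between VEDS and control libraries had opposite signs in females and males, and the difference between the sexes was not tested. Member peaks fell by 30 from the control female to the VEDS female library and were 66 higher in the VEDS male than in the control male. Members with a promoter peak fell by 8 in females and were 10 higher in VEDS males. Members with an AP-1 match fell by 4 in females and were 6 higher in VEDS males. With 200-bp windows, the VEDS male list had 4 members with a match. The signs follow the length of the lists, which is 21176 and 504 peaks in females and 1236 and 41444 in males.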

How the results depend on the processing

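Of 80 alternative values, 28 were counts of 0 that stayed 0. Of the other 52, 34 stayed within 1.5 times the count reported, or, for the share of overlap, within its interval. At equal list size, the 504 highest peaks of a list held 0 member peaks, 0 members with a promoter peak and 0 with an AP-1 match for both long lists. A threshold of 10 on −log10 q left 12 control female and 34 VEDS male member peaks, and 1 member with an AP-1 match in the control female list. With 50 kb on either side, the control female list had 48 member peaks. With 200-bp windows, the VEDS male list had 4 members with an AP-1 match instead of 6, and the control female list stayed at 4. The single VEDS female peak was lost (0) at a −log10 q of 5 or 10, within 5 kb and when the nearest start had to be the member's. Per genotype, leaving out 1 library gave 0 to 31 control member peaks and 1 to 66 VEDS ones, and 0 to 8 control and 0 to 10 VEDS members with a promoter peak, since 1 library supplied nearly all of each genotype's peaks: without the control female library the control counts are 0, and without the VEDS male library the VEDS counts are 1 and 0. No paired analysis was made, since each sex had 1 library per genotype and the lists differed in length. The differences within each sex are given as values. Depth limits every count, since a region open in a shallow library may have no peak.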
